A study of Homo sapiens with 14 samples.

Results

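The comparison described here is the difference between the responses of 2 human prostate cancer cell lines to dilazep. For each gene, the log2 change with dilazep in LNCaP was subtracted from the log2 change with dilazep in LNCaP-abl. All 14 arrays of the series enter it, so its members are 14 of 14 samples, chosen by cell line and treatment alone. LNCaP is an androgen-sensitive line and was grown in 10% fetal bovine serum. LNCaP-abl is a subline of LNCaP adapted to growth without androgen and was grown in phenol-red free medium with 10% charcoal-stripped serum, so line and serum cannot be told apart. Cells received 50 µM dilazep, a vasodilator drug, or a control for 48 h, and total RNA was hybridised as biotin-labelled amplified RNA to Illumina BeadChip arrays. Each line had 3 dilazep arrays (replicates 1, 2 and 4 in LNCaP, 1, 2 and 3 in LNCaP-abl), 2 H2O arrays and 2 DMSO arrays, which makes 6 groups. The 2 vehicles were given equal weight as the control of a line, because the labels do not say which belongs to dilazep. For the control arrays the treatment text names bufalin (10 nM), another compound, in place of dilazep. Whether controls and dilazep cells came from 1 experiment cannot be told from the labels, so drug and experiment cannot be told apart within a line. Nothing says that replicates were separate cultures, so p-values measure only how far these arrays lie apart, which may be technical.

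Dilazep inhibits the equilibrative nucleoside transporters, which carry adenosine and other nucleosides across the cell membrane. Among the programmes that differed between the lines, the ATF4 pathway answers amino acid shortage and endoplasmic reticulum (ER) stress with genes of amino acid uptake and synthesis. NRF2 switches on genes that make glutathione and reduce oxidised thiols. E2F factors drive the genes of DNA replication, and mitotic genes carry further elements that hold them silent in resting cells.

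Between 17925 and 19856 probes per array were detected (detection p-value under 0.05), and median signals lay between 144.6 and 154.6. Levels are background-corrected, quantile-normalised log2 signals. They can be compared between arrays for 1 gene, not between genes. Of 11 luminal prostate markers, 9 had a named probe, and all 9 were detected on 7 of 7 LNCaP arrays. In LNCaP-abl, 8 of the 9 were detected on 7 of 7 arrays, and KLK3 on 4. Of 6 basal markers, 0 had a named probe, so their signal could not be examined. Of 12 markers of other cells with a named probe, PECAM1 and SYP were detected on 0 arrays, and ACTA2, CD68, ENO2 and NMU on 7 of 7 arrays of both lines. The summed signal of the luminal markers (log2) was 14.3 to 14.5 in LNCaP controls, 14.2 in LNCaP-abl controls and 14.7 in the dilazep arrays of both lines. Of 8 kept markers of other cell types, the endothelial gene VWF fell in both lines and less in LNCaP-abl (difference 0.93, log2), the immune gene CD68 rose by 0.54 in LNCaP-abl and 1.01 in LNCaP with no called difference, and 2 of 4 neuroendocrine genes, among them ENO2, responded more negatively in LNCaP-abl. Their part in the other results was not tested. In bulk RNA, fewer cells of a type and less RNA per cell cannot be told apart.

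The response to dilazep differed between the lines for 4056 of 11983 genes tested (33.8%), at a Benjamini-Hochberg adjusted p under 0.05 in a limma fit to all 14 arrays. Every adjusted p below comes from that fit, and a gene that passes is named called. The response was more positive in LNCaP-abl for 1907 genes (15.9%) and more negative for 2149 (17.9%). These shares are the background for the list counts below. The difference was at least 1 on the log2 scale for 1182 genes (9.86%), 519 more positive and 663 more negative. The median difference over all genes was -0.02, the median size 0.36 and the median standard error (SE) 0.18. With median scaling of the arrays in place of quantile normalisation, the median difference was -0.22, and 22.7% of the called genes were more positive in place of 47.0%. The same kind of contrast between the vehicles, DMSO against H2O, called 0 genes by limma, with 498 (4.16%) at an unadjusted p under 0.05. It set 2 arrays against 2 in each line, where the dilazep contrast set 3 against 4, so it was less precise. It compared control arrays alone, so it cannot show whether controls and dilazep cells came from 1 experiment. No label names a chip, a run or a scan, so none could be used as a block.

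**Figure D1:**
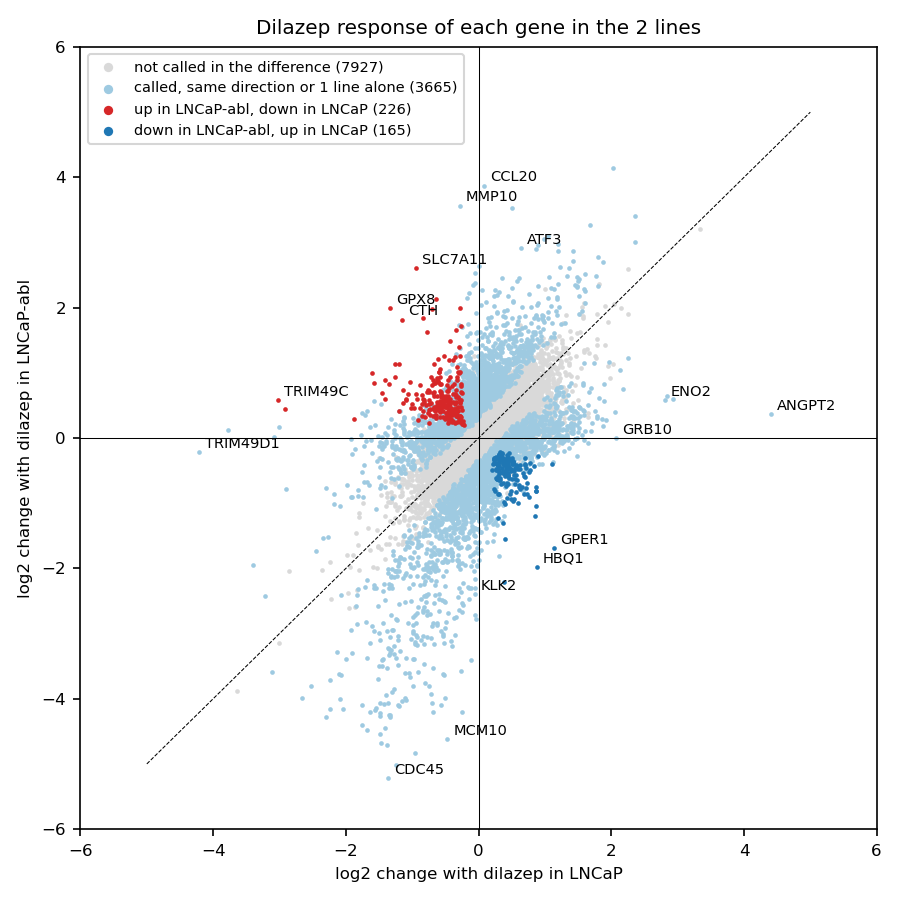
Each point is 1 of 11983 genes, with its log2 change under dilazep in LNCaP on the x axis and in LNCaP-abl on the y axis, and the dashed line marks equal responses. The 226 genes that rose in LNCaP-abl and fell in LNCaP lie in the upper left, the 165 with the opposite pattern in the lower right, and many called genes lie far below the line.

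Sorted by the response of each line, 391 called genes moved in opposite directions. Of these, 226 (1.89% of genes tested) rose in LNCaP-abl and fell in LNCaP, and 165 (1.38%) fell in LNCaP-abl and rose in LNCaP. In 191 of the 226 and 134 of the 165 genes, dilazep and control arrays did not overlap in either line, while 479 of all genes tested (4%) had no overlap in both lines and opposite directions. Within the lines, 27.2% of all genes tested were called higher and 23.3% lower with dilazep in LNCaP-abl, and 24.2% higher and 19.7% lower in LNCaP. Among genes whose response differed, a change in LNCaP-abl alone was called for 789 genes that rose and 785 that fell, and a change in LNCaP alone for 554 that rose and 427 that fell. Both lines rose in 349 genes with the larger rise in LNCaP-abl and in 68 with the larger rise in LNCaP. Both fell in 514 genes with the larger fall in LNCaP-abl and in 69 with the larger fall in LNCaP. The last 110 were called in neither line. In 1951 of the 4056 called genes the line with the higher mean level changed between control and dilazep. These genes were called by the change in the distance between the lines, and the same count over all genes tested was not made. The split of opposite genes depended on the scaling, with 85 and 319 under median scaling in place of 226 and 165.

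**Figure D2:**
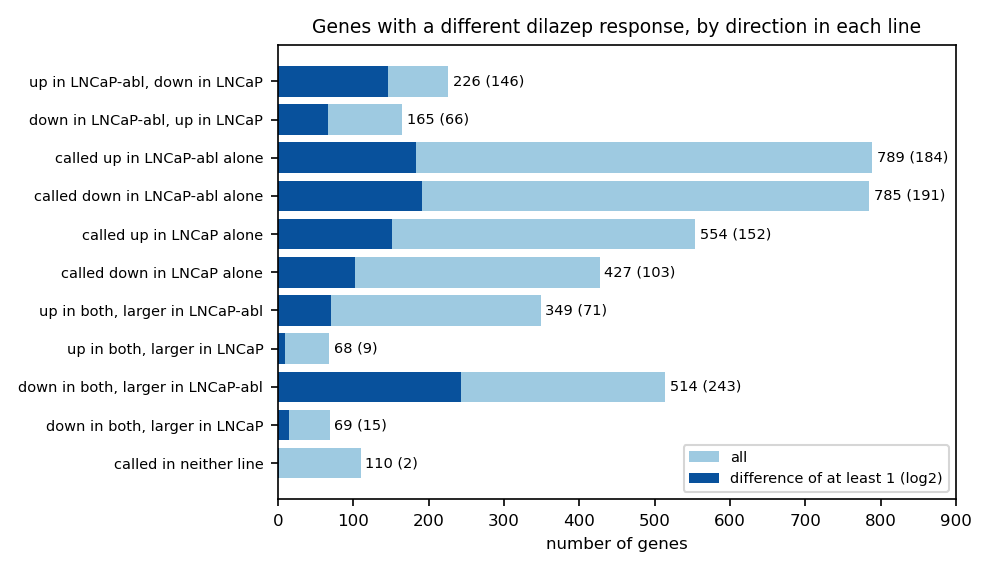
Bars count the called genes by direction in each line, with the genes whose difference was at least 1 (log2) in dark blue and in brackets. Genes called in LNCaP-abl alone form the longest bars, and of the genes with a difference of at least 1, the 243 that fell further in LNCaP-abl are the most.

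LNCaP dilazep replicate 4 lay farther from the LNCaP controls than the other dilazep arrays of that line in many genes. It was the lowest of the 3 in 137 of the 226 genes (60.6%) that fell in LNCaP and rose in LNCaP-abl. It was the highest in 296 of the 554 genes (53.4%) that rose in LNCaP alone. In the 165 genes of the other opposite pattern, replicate 2 was the highest in 68 and replicate 4 in 66. Without this array, 3630 genes were called, and 167 and 125 had opposite responses. Each of the 3 dilazep arrays of LNCaP-abl was the farthest from its controls in 27.9% to 36.3% of the 226 genes, and in 26.7% to 44.2% of the 165, the 44.2% being replicate 1.

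Genes of the ATF4 pathway and of cysteine and serine metabolism were among those that rose in LNCaP-abl and fell in LNCaP. Of 16 ATF4 transcription factors and feedback genes, 15 differed towards the positive side, as did 15.9% of all genes tested, and 0 towards the negative (median difference 1.33, against -0.02 over all genes tested). Of the 16, 5 rose in LNCaP-abl and fell in LNCaP, as did 1.89% of all genes. Another 5 (31.2%), among them ATF3, were called higher in both lines, as were 13.5% of all genes tested. Of 16 measured genes of serine, glycine, asparagine and cysteine synthesis, 11 were more positive and 1 more negative (median difference 0.44, or 0.14 with median scaling). In this list 9 were called lower in LNCaP (19.7% of all genes tested) and 11 higher in LNCaP-abl (27.2%). CTH makes cysteine from cystathionine. In LNCaP its level was 7.73 and 7.87 with H2O, 7.74 and 7.64 with DMSO, and 6.77, 6.45 and 6.56 with dilazep. In LNCaP-abl it was 6.31 and 6.13 with H2O, 6.20 and 6.07 with DMSO, and 7.90, 8.20 and 7.89 with dilazep. The dilazep arrays were the lowest of LNCaP and the highest of LNCaP-abl, with no overlap with the controls of their line. CTH changed by 1.82 in LNCaP-abl and -1.15 in LNCaP, a difference of 2.97 (SE 0.16, adjusted p = 1.4e-07), and by 1.92 and 1.21 between the lines at its other probes. SLC7A11 imports cystine, the oxidised form of cysteine. Its LNCaP levels were 6.40 and 5.76 with H2O, 6.12 and 6.63 with DMSO, and 5.11, 5.60 and 5.13 with dilazep. Its LNCaP-abl levels were 7.32 and 6.98 with H2O, 7.17 and 6.79 with DMSO, and 9.64, 9.58 and 9.79 with dilazep. LNCaP-abl was the higher line in every group, and the distance was widest on the dilazep arrays. The difference was 3.55 (SE 0.27, adjusted p = 2.1e-06), with 1 of 3 LNCaP dilazep arrays detected.

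CHAC1, an ATF4 target that degrades glutathione, had LNCaP levels of 5.43 and 5.27 with H2O, 5.83 and 5.37 with DMSO, and 4.82, 4.80 and 4.87 with dilazep. The LNCaP-abl levels were 5.43 and 5.21 with H2O, 5.72 and 6.06 with DMSO, and 7.74, 7.58 and 7.89 with dilazep. Controls of the lines overlapped, and the dilazep arrays did not. No LNCaP dilazep array was above background for CHAC1, so its fall there is a bound of at least 1.11-fold, and its difference was 2.78 (SE 0.19, adjusted p = 7.9e-07). The transcription factor CEBPB rose by 1.01 in LNCaP-abl and fell by 0.60 in LNCaP (1.61, SE 0.11, adjusted p = 1.4e-06 between them). TRIB3, a pseudokinase that feeds back on ATF4, rose by 1.40 and fell by 0.29. Its fall in LNCaP was not called with median scaling, against H2O alone, or without LNCaP dilazep replicate 1 or replicate 4. PSAT1, an enzyme of serine synthesis, rose by 1.20 and fell by 0.39. Asparagine synthetase, ASNS, rose by 1.79 in LNCaP-abl, with a change of 0.16 in LNCaP that was not called. PCK2, the mitochondrial carboxykinase that makes phosphoenolpyruvate, showed the same pattern. Its levels were 11.03 and 11.02 with H2O, 10.66 and 11.05 with DMSO, and 10.87, 10.87 and 10.99 with dilazep in LNCaP. They were 10.65 and 10.68 with H2O, 10.69 and 10.64 with DMSO, and 12.56, 12.57 and 12.62 with dilazep in LNCaP-abl. Only the LNCaP-abl dilazep arrays stood apart for PCK2, and the difference was 1.96 (SE 0.13, adjusted p = 1.0e-06).

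GPX8, a peroxidase-type protein of the ER, followed 2 genes of the TRIM family in the size of its difference, among opposite genes detected on at least 1 of 2 control arrays of each kind and 2 of 3 dilazep arrays. In LNCaP it read 8.97 and 8.96 with H2O, 9.09 and 9.12 with DMSO, and 7.79, 7.68 and 7.65 with dilazep. On LNCaP-abl arrays it read 6.18 and 5.25 with H2O, 6.12 and 6.06 with DMSO, and 7.98, 8.05 and 7.66 with dilazep. The lines were apart under control and met under dilazep. GPX8 rose by 1.99 in LNCaP-abl and fell by 1.33 in LNCaP, a difference of 3.32 (SE 0.25, adjusted p = 1.9e-06). A call was not made at the other probe of GPX8, where the difference was -0.40. The promoters of CHAC1 and GPX8 are shown because both held the letters TGATGNAA, the core of the composite element bound by C/EBP and ATF proteins, on one of the strands. The sequences run 5′ to 3′ on the gene's strand, from 250 bases before to 50 after the annotated start, from RefSeq (GRCh38.p14), with the match in capitals. CHAC1 lies on the plus strand at chr15:40953221-40953520 with its match starting 209 bases before the start, and GPX8 on the plus strand at chr5:55159921-55160220 with its match 189 bases before it.
CHAC1: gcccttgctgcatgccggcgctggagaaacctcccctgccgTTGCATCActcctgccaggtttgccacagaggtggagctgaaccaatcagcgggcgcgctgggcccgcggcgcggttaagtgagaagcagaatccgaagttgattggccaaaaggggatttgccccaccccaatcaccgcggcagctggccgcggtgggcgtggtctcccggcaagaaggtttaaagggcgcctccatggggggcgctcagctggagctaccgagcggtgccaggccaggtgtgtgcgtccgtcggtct
GPX8: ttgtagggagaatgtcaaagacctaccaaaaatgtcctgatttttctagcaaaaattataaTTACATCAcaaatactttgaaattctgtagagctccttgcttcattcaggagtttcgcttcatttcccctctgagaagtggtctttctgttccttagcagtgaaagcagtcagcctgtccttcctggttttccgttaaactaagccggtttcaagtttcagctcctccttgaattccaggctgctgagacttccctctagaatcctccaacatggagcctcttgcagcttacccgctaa
Searched on both strands, this element stood in 9 of the 195 promoters (4.62%) found for the 226 genes that rose in LNCaP-abl and fell in LNCaP. It stood in 0 of the 131 promoters found for the 165 genes of the other pattern, in 1.78% of the promoters of all genes tested, and in 3.67% of all 27305 promoters of the table. A match describes these letters and is not a binding site.

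Transport and export genes were among the opposite genes as well. SLC7A5, the light chain of the large neutral amino acid transporter, had LNCaP levels of 6.04 and 6.14 with H2O, 6.04 and 6.07 with DMSO, and 4.88, 4.89 and 4.83 with dilazep. LNCaP-abl gave 11.18 and 11.17 with H2O, 11.29 and 11.15 with DMSO, and 11.64, 11.60 and 11.62 with dilazep. The LNCaP-abl arrays were far above the LNCaP arrays in every group, and dilazep widened the distance. SLC7A5 rose by 0.42 (log2) in LNCaP-abl. LNCaP was lower by at least 1.68-fold, its dilazep arrays all below background (1.63 on the log2 scale, SE 0.10, adjusted p = 6.2e-07 between the lines). SLC1A5, a glutamine transporter, rose by 0.32 and fell by 0.81. The rise of both transporters in LNCaP-abl was not called with median scaling, nor that of SLC1A5 without LNCaP-abl dilazep replicate 2. Of 16 amino acid transporters, 7 were more positive and 4 more negative in LNCaP-abl (median difference 0.15, and -0.02 with median scaling). SLC1A3, a glutamate transporter, was among the 4. It was above background on no LNCaP array, and in LNCaP-abl it was at least 2.23-fold lower, where its dilazep arrays were below background too (-1.35, SE 0.16, adjusted p = 7.0e-05).

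XPOT carries transfer RNA out of the nucleus. LNCaP gave 8.59 and 8.53 with H2O, 8.26 and 8.34 with DMSO, and 7.40, 6.84 and 6.84 with dilazep. In LNCaP-abl the levels were 7.62 and 7.97 with H2O, 8.16 and 7.24 with DMSO, and 8.54, 8.67 and 8.68 with dilazep. All LNCaP dilazep arrays lay below, and all LNCaP-abl dilazep arrays above, the controls of their line. XPOT differed by 2.29 (SE 0.28, adjusted p = 1.1e-04). RASD1, a Ras-like protein induced by glucocorticoid, rose by 1.00 and fell by 1.60, and SMPDL3A, a phosphodiesterase related to acid sphingomyelinase, by 1.13 and 1.20. ASPH, an aspartate hydroxylase of the ER, differed by 2.41 (SE 0.29, adjusted p = 7.9e-05), with 1.77 at another probe and 0.40, not called, at a further one. The histone H2A gene H2AC6 differed by 2.69 (SE 0.31, adjusted p = 5.6e-05). Its LNCaP dilazep and control arrays overlapped, and its fall in LNCaP was not called against DMSO alone or without LNCaP H2O replicate 1, DMSO replicate 3, dilazep replicate 2 or dilazep replicate 4.

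The ER stress genes split. Of 23 measured ER chaperones and unfolded protein response genes, 9 were more positive and 7 more negative in LNCaP-abl, beside 15.9% and 17.9% of all genes tested. Their median difference was 0.22, and -0.04 with median scaling. XBP1, a transcription factor of the unfolded protein response, had LNCaP levels of 11.88 and 11.89 with H2O, 11.81 and 12.05 with DMSO, and 11.004, 11.03 and 10.64 with dilazep. The levels in LNCaP-abl were 11.39 and 11.57 with H2O, 11.66 and 11.42 with DMSO, and 11.95, 12.05 and 11.89 with dilazep. Under dilazep all LNCaP arrays lay below and all LNCaP-abl arrays above their controls (1.47, SE 0.17, adjusted p = 5.4e-05), although the rise in LNCaP-abl was not called with median scaling. EDEM1, which directs misfolded proteins to degradation, rose by 1.25 and fell by 0.36, and the co-chaperone DNAJB9 rose by 1.44 in LNCaP-abl with -0.15, not called, in LNCaP. PDIA4, a disulfide isomerase of the same compartment, went the other way. Its LNCaP levels were 8.62 and 8.63 with H2O, 8.78 and 8.62 with DMSO, and 9.23, 9.53 and 9.50 with dilazep. Its LNCaP-abl levels were 9.27 and 8.84 with H2O, 8.71 and 9.07 with DMSO, and 7.96, 8.01 and 8.23 with dilazep. Dilazep arrays were the highest in LNCaP and the lowest in LNCaP-abl, with no overlap with controls, and the difference was -1.66 (SE 0.19, adjusted p = 5.7e-05).

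The other genes that fell in LNCaP-abl and rose in LNCaP had varied functions. HBQ1, a globin gene, had LNCaP levels of 7.03 and 6.92 with H2O, 7.03 and 7.16 with DMSO, and 7.88, 8.11 and 7.74 with dilazep. In LNCaP-abl they were 8.41 and 8.39 with H2O, 8.26 and 8.45 with DMSO, and 6.63, 6.30 and 6.28 with dilazep. The order of the lines turned over, with LNCaP-abl higher under control and LNCaP higher under dilazep. HBQ1 changed by -1.97 in LNCaP-abl and 0.88 in LNCaP, a difference of -2.85 (SE 0.16, adjusted p = 2.6e-07). GPER1, a membrane receptor for oestrogen, had LNCaP levels of 8.32 and 7.93 with H2O, 8.14 and 8.14 with DMSO, and 9.20, 9.34 and 9.27 with dilazep. On LNCaP-abl arrays it read 8.98 and 9.01 with H2O, 8.84 and 8.87 with DMSO, and 7.01, 7.38 and 7.32 with dilazep. It too was higher in LNCaP-abl under control and lower there under dilazep, and the difference was -2.83 (SE 0.16, adjusted p = 2.4e-07). Other probes of GPER1 gave -2.33 and -0.62, the latter not called.

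DDC, the decarboxylase that makes dopamine and serotonin, had LNCaP levels of 8.51 and 8.60 with H2O, 8.42 and 8.74 with DMSO, and 9.42, 9.45 and 9.42 with dilazep. LNCaP-abl gave 11.75 and 11.72 with H2O, 11.61 and 11.61 with DMSO, and 10.89, 10.92 and 10.79 with dilazep. The dilazep arrays lay closer to the other line than the controls did, and the difference was -1.67 (SE 0.13, adjusted p = 1.9e-06). TUBA4A, an alpha tubulin, fell by 1.31 in LNCaP-abl and rose by 0.37 in LNCaP. Its responses were not called opposite when replicate number was added to the fit as a block. MAPK12, a p38 kinase, fell by 0.86 and rose by 0.73, GPRIN2 fell by 1.04 and rose by 0.87, and GFOD1 fell by 0.85 and rose by 0.68. BARD1, the partner of BRCA1, had LNCaP levels of 8.33 and 8.56 with H2O, 8.39 and 8.22 with DMSO, and 8.84, 8.81 and 10.03 with dilazep. In LNCaP-abl the levels were 9.32 and 9.09 with H2O, 8.64 and 9.30 with DMSO, and 7.87, 7.82 and 8.00 with dilazep. LNCaP dilazep replicate 4 stood well above the other dilazep arrays for BARD1. The rise in LNCaP was not called without it, without LNCaP H2O replicate 1 or DMSO replicate 3, or against H2O alone. The difference between the lines was -2.05 (SE 0.37, adjusted p = 0.00148). RAD9A, part of a DNA damage checkpoint clamp, differed by -1.60 (SE 0.30, adjusted p = 0.00203), and its rise in LNCaP was not called against either vehicle alone, with the authors' processed values, or without any one of LNCaP H2O replicates 1 and 3, DMSO replicate 3 and dilazep replicates 1 and 2.

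**Figure D3:**
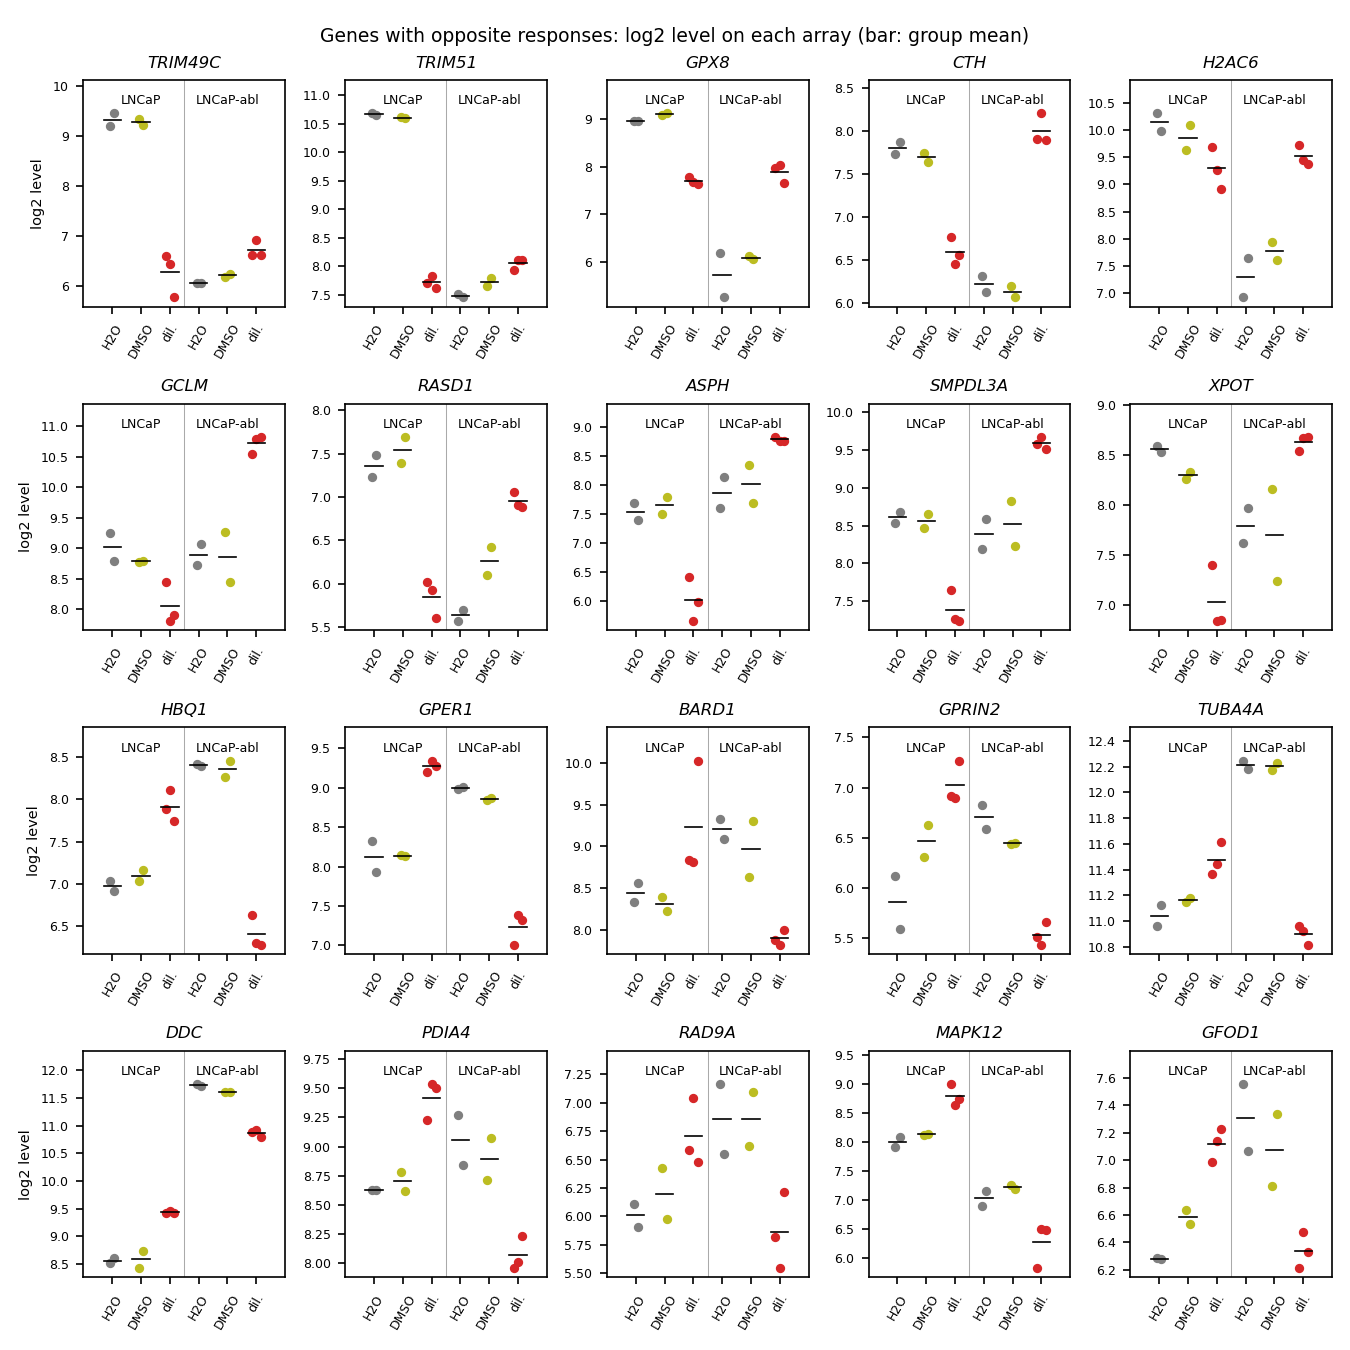
Log2 level of the 20 named genes with opposite responses on each of the 14 arrays, by group, with the group mean as a bar. In the upper 2 rows of panels the dilazep mean lies below the control means in LNCaP and above them in LNCaP-abl, in the lower 2 rows the reverse, and replicate 4 stands above the other LNCaP dilazep arrays for BARD1.

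Most NRF2 antioxidant targets responded more positively in LNCaP-abl. Of 14 measured, 12 were more positive in LNCaP-abl and 0 more negative (median difference 0.98), against 15.9% of all genes tested on the positive side. The median change was 1.61 in LNCaP-abl and 0.26 in LNCaP. NQO1, a quinone reductase, had LNCaP levels of 10.86 and 10.91 with H2O, 10.64 and 10.59 with DMSO, and 11.94, 11.94 and 11.97 with dilazep. The levels in LNCaP-abl were 10.58 and 10.14 with H2O, 10.48 and 10.46 with DMSO, and 13.18, 13.38 and 13.27 with dilazep. It rose in both lines with no overlap, by 2.86 in LNCaP-abl and 1.20 in LNCaP (1.66, SE 0.15, adjusted p = 7.0e-06 between them). Sulfiredoxin, SRXN1, reduces over-oxidised peroxiredoxins. In LNCaP it read 10.07 and 9.95 with H2O, 10.03 and 10.00 with DMSO, and 10.17, 10.31 and 10.30 with dilazep. Its LNCaP-abl levels were 9.92 and 9.90 with H2O, 10.12 and 9.98 with DMSO, and 12.32, 12.23 and 12.18 with dilazep. LNCaP rose by 0.25 and LNCaP-abl by 2.27, a difference of 2.02 (SE 0.11, adjusted p = 2.3e-07). The rise in LNCaP was not called against either vehicle alone or without LNCaP H2O replicate 3, DMSO replicate 3, dilazep replicate 2 or dilazep replicate 4. Thioredoxin reductase, TXNRD1, rose by 2.01 and 0.66, while its other probe gave 1.97 and -0.24. GCLM, the modifier subunit of the enzyme that starts glutathione synthesis, rose by 1.84 in LNCaP-abl and fell by 0.84 in LNCaP. At the other probe of GCLM the LNCaP-abl change was 1.41 and the LNCaP change 2.16, with a difference of -0.75 that was not called, so the fall in LNCaP rests on 1 probe.

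Histone genes also moved apart. Of 17 measured core and linker histone genes, 9 were more positive in LNCaP-abl and 3 more negative (median difference 1.03), beside 15.9% and 17.9% of all genes tested. H4C8, a histone H4 gene, had LNCaP levels of 10.00 and 9.91 with H2O, 9.93 and 10.00 with DMSO, and 10.23, 9.93 and 9.55 with dilazep. On LNCaP-abl arrays it read 8.07 and 8.31 with H2O, 8.68 and 7.80 with DMSO, and 10.67, 10.57 and 10.56 with dilazep. LNCaP was higher under control, and LNCaP-abl under dilazep. The difference was 2.44 (SE 0.27, adjusted p = 5.1e-05). H4C5 (2.22, SE 0.16, adjusted p = 1.5e-06), H4C14 (1.93, SE 0.18, adjusted p = 1.4e-05) and the linker histone gene H1-2 (1.20, SE 0.12, adjusted p = 2.2e-05) also rose in LNCaP-abl with no called change in LNCaP. Without LNCaP dilazep replicate 4, or with median scaling, a change of H4C14 was called in LNCaP too. H2BC5 rose in both lines (1.53, SE 0.15, adjusted p = 1.7e-05). H2AX, which marks DNA breaks, fell by 2.50 in LNCaP-abl and 1.02 in LNCaP. H2BC11 fell in both lines, further in LNCaP (1.26, SE 0.27, adjusted p = 0.00397), but its fall in LNCaP-abl was not called against DMSO alone or with the authors' processed values. Histone genes are similar in sequence, and cross-hybridisation between them was not tested.

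Genes of DNA replication fell far more in LNCaP-abl. Of 12 genes of the MCM helicase, CDC45 and GINS, 10 were more negative in LNCaP-abl and 0 more positive (median difference -2.40), against 17.9% more negative over all genes. All 12 were called lower in LNCaP-abl and 9 in LNCaP, beside 23.3% and 19.7% of all genes tested. Of 33 measured genes of the replication fork, clamp and origin licensing, 27 were more negative (median -1.20), and of 21 nucleotide synthesis genes 15 (median -0.57), with 0 more positive in either list. GINS2, a helicase cofactor, had LNCaP levels of 9.84 and 10.01 with H2O, 9.73 and 9.88 with DMSO, and 9.20, 9.23 and 9.09 with dilazep. LNCaP-abl gave 9.86 and 9.98 with H2O, 9.86 and 10.11 with DMSO, and 5.87, 5.70 and 5.67 with dilazep. The controls of the lines were alike, and the LNCaP-abl dilazep arrays lay below all others. GINS2 fell by 4.21 in LNCaP-abl and 0.69 in LNCaP, a difference of -3.52 (SE 0.14, adjusted p = 3.9e-08). MCM3, a helicase subunit, fell in LNCaP-abl alone. LNCaP gave 11.56 and 11.79 with H2O, 11.84 and 11.85 with DMSO, and 11.66, 11.64 and 11.55 with dilazep. In LNCaP-abl the levels were 11.99 and 11.78 with H2O, 11.91 and 12.11 with DMSO, and 9.42, 9.46 and 9.53 with dilazep. LNCaP dilazep and control arrays overlapped, and the difference was -2.33 (SE 0.13, adjusted p = 2.3e-07). MCM10 (-4.14, SE 0.17, adjusted p = 4.3e-08, with -1.31 at its other probe), MCM2 (-3.06, SE 0.17, adjusted p = 1.8e-07), the flap nuclease FEN1 (-2.23, SE 0.15, adjusted p = 1.0e-06) and thymidine kinase TK1 (-3.48, SE 0.16, adjusted p = 6.4e-08) fell in both lines and further in LNCaP-abl. POLD1, the catalytic subunit of DNA polymerase delta, fell in LNCaP-abl alone (-2.18, SE 0.16, adjusted p = 1.6e-06). DTL, which marks licensing factors for degradation, fell below background on all dilazep arrays of LNCaP-abl, a fall of at least 12.5-fold. In LNCaP it changed by -0.25 (log2), not called.

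Mitotic genes fell in both lines and further in LNCaP-abl. Of 22 mitotic kinases, cyclins and subunits of the anaphase-promoting complex, 21 were more negative in LNCaP-abl (median -2.09). Of 40 genes of the centromere, kinetochore, spindle and condensin, 38 were (median -1.87), against 17.9% of all genes tested. In these lists 21 and 39 genes were called lower in LNCaP, as were 19.7% of all genes tested. The list medians were -1.27 and -1.28 in LNCaP, against -3.40 and -3.38 in LNCaP-abl. CDCA5, which stabilises cohesin, had LNCaP levels of 10.42 and 10.41 with H2O, 10.51 and 10.47 with DMSO, and 9.75, 9.55 and 9.96 with dilazep. The levels in LNCaP-abl were 10.87 and 10.83 with H2O, 10.75 and 10.82 with DMSO, and 6.53, 7.03 and 6.69 with dilazep. Dilazep arrays lay below controls in each line, by far the more in LNCaP-abl (-3.37, SE 0.18, adjusted p = 1.4e-07). CENPU (-3.53, SE 0.13, adjusted p = 2.6e-08), NCAPG (-3.77, SE 0.17, adjusted p = 5.8e-08), BIRC5 (-3.22, SE 0.17, adjusted p = 1.6e-07, with -0.84 at its other probe), TOP2A (-3.22, SE 0.19, adjusted p = 3.1e-07), PBK (-2.91, SE 0.12, adjusted p = 4.3e-08) and CDC20 (-2.56, SE 0.12, adjusted p = 7.1e-08) fell likewise. The mitotic kinase gene AURKB fell by at least 18.8-fold in LNCaP-abl and the replication gene CDC45 by at least 28.5-fold, both to below background on every dilazep array. With no background correction the median differences of the MCM, mitotic kinase and centromere lists were -1.73, -1.34 and -0.98, and with the authors' processed values -1.35, -1.11 and -0.67.

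The promoters of GINS2 and CDCA5 are shown as examples of E2F elements, searched as TTTCCCGC or TTTGGCGC on both strands. Both genes lie on the minus strand, GINS2 at chr16:85688905-85689204 with its match starting 31 bases before the annotated start, and CDCA5 at chr11:65083991-65084290 with its match 45 bases before it (RefSeq, GRCh38.p14, 5′ to 3′ on the gene's strand, match in capitals).
GINS2: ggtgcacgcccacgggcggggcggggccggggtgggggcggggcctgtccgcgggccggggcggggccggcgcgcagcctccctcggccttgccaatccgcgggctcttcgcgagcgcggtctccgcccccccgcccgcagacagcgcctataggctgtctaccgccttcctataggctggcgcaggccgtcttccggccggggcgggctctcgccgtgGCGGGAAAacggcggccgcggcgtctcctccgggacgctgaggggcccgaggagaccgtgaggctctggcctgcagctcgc
CDCA5: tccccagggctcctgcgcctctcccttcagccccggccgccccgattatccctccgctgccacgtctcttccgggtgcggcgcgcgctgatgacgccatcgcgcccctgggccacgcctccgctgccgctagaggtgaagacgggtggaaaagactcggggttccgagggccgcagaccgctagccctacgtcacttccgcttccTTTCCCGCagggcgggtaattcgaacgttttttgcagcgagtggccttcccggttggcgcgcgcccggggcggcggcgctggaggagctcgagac
An E2F element stood in 30 of the 417 promoters (7.19%) found for the 514 genes that fell in both lines and further in LNCaP-abl, and in 6.94% of those found for genes that fell in LNCaP-abl alone. The share was 3.66% among promoters of all genes tested and 2.31% among all promoters of the table. The letters TTTGAA, the core of the cell cycle homology region of mitotic promoters, stood in 105 of the 417 promoters (25.2%), in 8.71% for genes that fell in LNCaP-abl alone, in 9.95% for all genes tested and in 15.4% of all promoters. The E2F spellings and TTTGAA cannot overlap on either strand.

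Among the genes with the largest differences that fell in LNCaP-abl and had no called change in LNCaP were POLQ, BRCA1, NEMP1 and HAUS8. POLQ, a polymerase of end joining, had LNCaP levels of 9.17 and 8.90 with H2O, 9.20 and 9.18 with DMSO, and 8.77, 8.95 and 8.82 with dilazep. Its LNCaP-abl levels were 9.77 and 9.56 with H2O, 9.33 and 9.67 with DMSO, and 5.53, 6.22 and 6.29 with dilazep. Only the LNCaP-abl dilazep arrays stood apart (-3.30, SE 0.24, adjusted p = 1.6e-06). BRCA1 differed by -2.79 (SE 0.23, adjusted p = 4.4e-06), with -3.20 at its other probe. Its change of -0.40 in LNCaP was called under several alternatives, among them no background correction, and without LNCaP DMSO replicate 3, LNCaP-abl DMSO replicate 1 or 3, or LNCaP-abl dilazep replicate 3. The nuclear envelope gene NEMP1 differed by -2.67 (SE 0.14, adjusted p = 1.4e-07) and the augmin subunit HAUS8 by -2.33 (SE 0.16, adjusted p = 1.0e-06), with a fall in LNCaP called too when LNCaP DMSO replicate 3 was left out. Of 35 measured genes of ribosome biogenesis, 23 were more negative in LNCaP-abl and 0 more positive (median -0.65). POLR1E, a subunit of RNA polymerase I, fell by 1.29 in LNCaP-abl with 0.24, not called, in LNCaP. Of 19 genes of G1 cyclins, CDK inhibitors and E2F and RB factors, 8 were more negative and 3 more positive. E2F2 differed by -2.65 (SE 0.18, adjusted p = 1.1e-06) and the kinase gene CDK2 by -1.41 (SE 0.13, adjusted p = 9.1e-06), with -0.09, not called, at its other probe. CDKN2B, an inhibitor of CDK4 and CDK6, rose by 2.02 in LNCaP-abl, with 0.23, not called, in LNCaP.

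Other genes changed in LNCaP with no called change in LNCaP-abl. GRB10, an adaptor of the insulin receptor, had LNCaP levels of 8.76 and 8.73 with H2O, 8.89 and 8.86 with DMSO, and 10.72, 10.96 and 10.97 with dilazep. On LNCaP-abl arrays it read 11.58 and 11.40 with H2O, 11.57 and 11.50 with DMSO, and 11.60, 11.50 and 11.43 with dilazep. LNCaP rose towards the level that LNCaP-abl held in every group, and the difference was -2.08 (SE 0.13, adjusted p = 4.6e-07), with -1.72 and 0.28 (not called) at other probes. SSTR2, a somatostatin receptor, had LNCaP levels of 8.75 and 8.98 with H2O, 8.64 and 8.39 with DMSO, and 10.02, 10.19 and 10.81 with dilazep. LNCaP-abl arrays gave 9.10 and 8.78 with H2O, 8.39 and 9.20 with DMSO, and 8.98, 8.69 and 8.71 with dilazep. In LNCaP, replicate 4 was the highest dilazep array, and all 3 lay above the controls. SSTR2 differed by -1.72 (SE 0.30, adjusted p = 0.0013). RASSF6 (-1.68, SE 0.31, adjusted p = 0.00177), TNFSF15 (-1.77, SE 0.36, adjusted p = 0.00297), PTGR2 (-1.65, SE 0.38, adjusted p = 0.00604) and ZNF483 (-1.62, SE 0.33, adjusted p = 0.00328) rose in LNCaP alone as well, each with replicate 4 as its highest LNCaP dilazep array. Each of these differences was called without that array, but the other probes of TNFSF15 and PTGR2 gave -0.14 and -0.67, not called.

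Genes of the TRIM49 group on chromosome 11 fell in LNCaP to levels near those of LNCaP-abl. TRIM49D1 had LNCaP levels of 9.89 and 9.99 with H2O, 9.55 and 9.75 with DMSO, and 5.79, 5.45 and 5.49 with dilazep. LNCaP-abl gave 5.76 and 5.81 with H2O, 6.12 and 5.76 with DMSO, and 5.76, 5.79 and 5.38 with dilazep. The LNCaP dilazep arrays came down into the LNCaP-abl range, with a change of -4.22 in LNCaP and a difference of 4.00 (SE 0.19, adjusted p = 7.0e-08). TRIM48 (3.18, SE 0.17, adjusted p = 1.8e-07), the pseudogene GRM5P1 (3.11, SE 0.21, adjusted p = 7.8e-07), TRIM51 (3.36, SE 0.12, adjusted p = 2.6e-08) and TRIM49C (3.61, SE 0.24, adjusted p = 7.8e-07) followed, all on chromosome 11. TRIM51 and TRIM49C also rose in LNCaP-abl, by 0.44 and 0.58, which was not called with median scaling, nor for TRIM49C against DMSO alone or without LNCaP-abl dilazep replicate 2. Without LNCaP-abl DMSO replicate 1, TRIM48 was called higher in LNCaP-abl as well. For TRIM49D2 (3.91, SE 0.22, adjusted p = 2.0e-07) no LNCaP-abl array was above background. Several of these TRIM genes are almost the same in sequence, and the probes may not tell them apart. The elongation factor gene TCEA1 (2.09, SE 0.43, adjusted p = 0.00323), TVP23C (2.14, SE 0.42, adjusted p = 0.00233) and HSD17B11 (2.08, SE 0.24, adjusted p = 6.6e-05) also fell in LNCaP alone. HSD17B11 was called higher in LNCaP-abl as well without background correction or without LNCaP-abl DMSO replicate 1.

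Of 36 measured hypoxia-inducible and glycolytic genes, 16 were more negative in LNCaP-abl and 2 more positive (median difference -0.23), beside 17.9% and 15.9% of all genes tested. ANGPT2, a vascular growth factor, had LNCaP levels of 6.18 and 6.48 with H2O, 6.42 and 6.33 with DMSO, and 10.86, 10.81 and 10.60 with dilazep. In LNCaP-abl no array was above background for ANGPT2, with levels of 4.59 to 5.31. All LNCaP dilazep arrays lay far above the LNCaP controls, and the difference was -4.04 (SE 0.18, adjusted p = 5.6e-08), with -4.01 and -2.82 at other probes. The enolase ENO2 had LNCaP levels of 6.90 and 7.00 with H2O, 7.06 and 7.12 with DMSO, and 9.89, 9.90 and 9.69 with dilazep. In LNCaP-abl the levels were 10.32 and 10.38 with H2O, 10.27 and 10.64 with DMSO, and 10.82, 11.10 and 11.04 with dilazep. Both lines rose, and LNCaP came from far below to near the LNCaP-abl level (-2.22, SE 0.15, adjusted p = 1.1e-06). PFKFB3, which makes the activator of phosphofructokinase, fell by 2.71 in LNCaP-abl and 0.77 in LNCaP. PFKP, a phosphofructokinase, fell by 1.58 in LNCaP-abl and changed by 0.22, not called, in LNCaP, where a rise was called without dilazep replicate 4.

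Some chemokine, immediate early and ID genes rose further in LNCaP-abl. Of 11 measured chemokines and NF-kB response genes, 6 were more positive and 1 more negative (median 0.70, or 0.15 with the authors' processed values), and 6 of the 11 rest on a bound in at least 1 group. CCL20, a chemokine that draws lymphocytes, was detected on no LNCaP array. The levels in LNCaP-abl were 7.21 and 7.24 with H2O, 7.28 and 6.86 with DMSO, and 11.04, 11.03 and 11.002 with dilazep. All LNCaP-abl dilazep arrays lay far above the controls, and CCL20 differed by 3.79 (SE 0.16, adjusted p = 4.3e-08), with LNCaP entering at values below background. The matrix metalloproteinase gene MMP10 rose from below background on every control array of LNCaP-abl, by at least 7.83-fold. CXCL8 differed by 2.10 (SE 0.16, adjusted p = 2.3e-06), and by 4.78 at its other probe, where LNCaP changed by -0.34. It left the pattern of a called rise in both lines against DMSO alone and with the authors' processed values, among other alternatives. So it did without LNCaP H2O replicate 1, DMSO replicate 3, dilazep replicate 2 or dilazep replicate 4. Of 26 immediate early and MAPK feedback genes, 9 were more positive and 4 more negative, beside 15.9% and 17.9% of all genes tested. EGR1 had LNCaP levels of 5.93 and 6.25 with H2O, 5.83 and 6.23 with DMSO, and 7.22, 7.00 and 7.08 with dilazep. Its LNCaP-abl levels were 5.51 and 5.13 with H2O, 5.13 and 5.55 with DMSO, and 8.53, 8.37 and 8.40 with dilazep. It rose in both lines, with the higher dilazep levels in LNCaP-abl (2.06, SE 0.21, adjusted p = 2.1e-05). FOS, a subunit of the AP-1 factor, rose in LNCaP-abl alone, from below background on every control array and by at least 2.42-fold. PHLDA1 went the other way. On LNCaP-abl arrays it read 8.64 and 9.25 with H2O, 9.17 and 9.11 with DMSO, and 5.56, 5.32 and 5.38 with dilazep. The dilazep arrays of LNCaP-abl came down to the LNCaP range, and PHLDA1 differed by -3.09 (SE 0.23, adjusted p = 1.6e-06), with -1.21 at its other probe. ID2, an inhibitor of basic helix-loop-helix factors, rose by 2.91 and 0.87, and the stress factor ATF3 by 2.91 and 0.64.

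**Figure D4:**
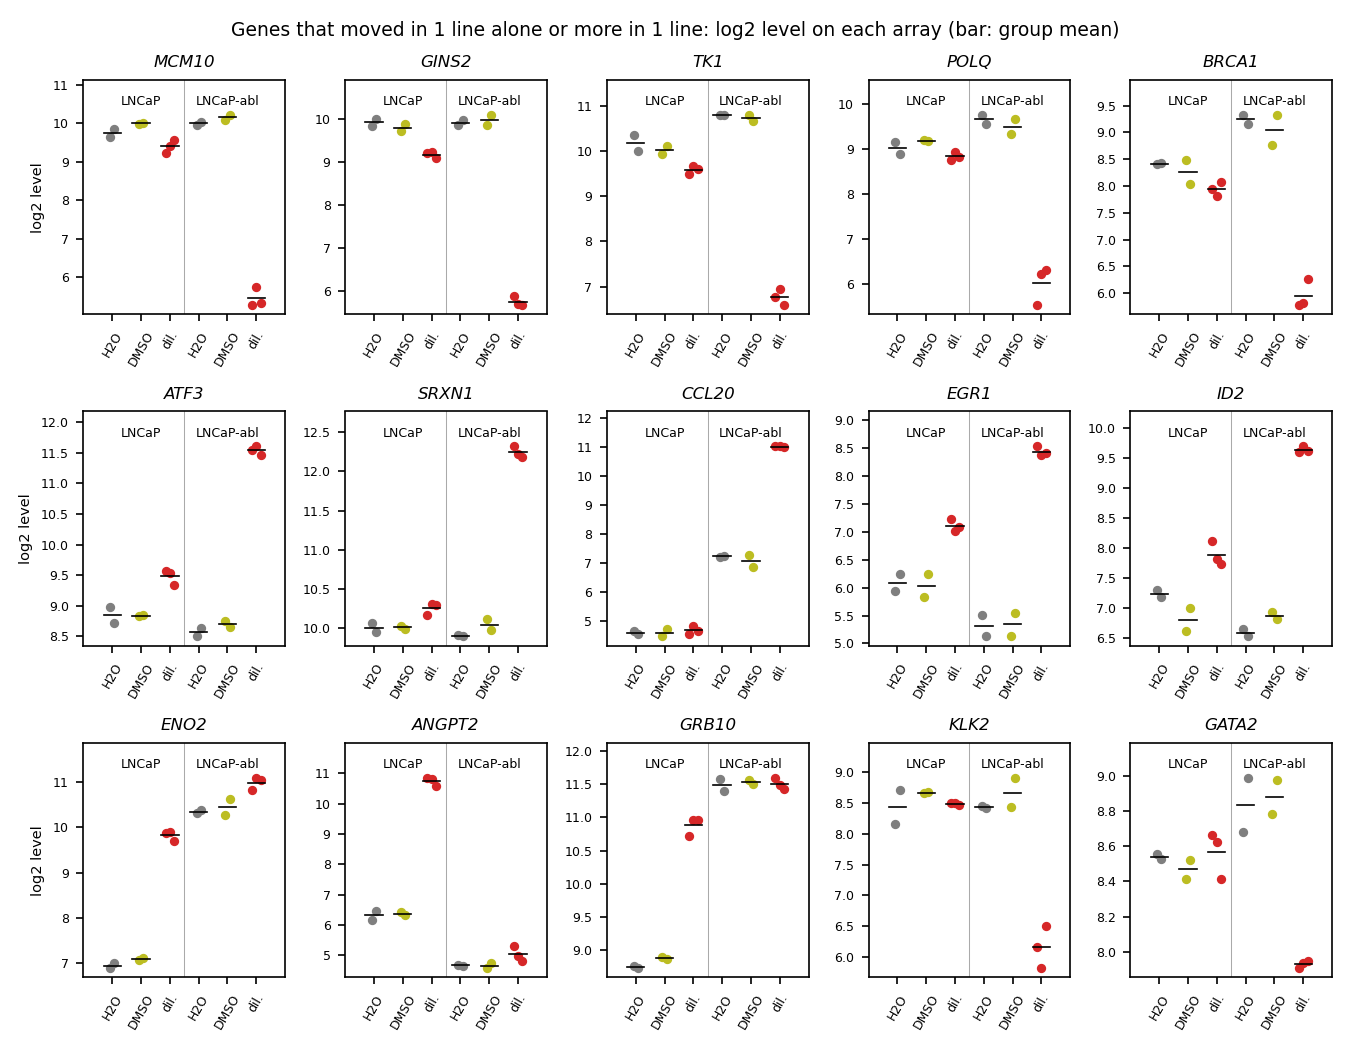
Log2 level of 15 named genes on each of the 14 arrays, by group, with the group mean as a bar. The upper row falls mainly in LNCaP-abl, the middle row rises mainly in LNCaP-abl, and in the lower row ENO2, ANGPT2 and GRB10 rise mainly in LNCaP while KLK2 and GATA2 fall in LNCaP-abl.

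GATA2, the factor named in the title of the series, had LNCaP levels of 8.55 and 8.53 with H2O, 8.41 and 8.52 with DMSO, and 8.66, 8.62 and 8.41 with dilazep. LNCaP-abl gave 8.68 and 8.99 with H2O, 8.78 and 8.97 with DMSO, and 7.91, 7.94 and 7.95 with dilazep. The LNCaP-abl dilazep arrays lay below the controls, and the LNCaP arrays overlapped (-0.99, SE 0.14, adjusted p = 3.2e-04). Of 10 measured prostate transcription factors, 2 were more negative and 1 more positive. HOXB13, a homeobox factor of prostate cells, fell by 1.15 in LNCaP-abl with 0.11, not called, in LNCaP. The epithelial factor ELF3 was the more positive one (1.05, SE 0.17, adjusted p = 6.5e-04). The difference was 0.32 (SE 0.12, adjusted p = 0.0535) for FOXA1 and 0.41 (SE 0.16, adjusted p = 0.0617) for the androgen-induced protease gene TMPRSS2. Neither was called here, though both were under some alternatives. KLK2, a secreted protease gene, had LNCaP levels of 8.15 and 8.70 with H2O, 8.65 and 8.68 with DMSO, and 8.50, 8.50 and 8.47 with dilazep. In LNCaP-abl the levels were 8.45 and 8.42 with H2O, 8.43 and 8.91 with DMSO, and 6.16, 5.82 and 6.50 with dilazep. The controls of the lines were alike, and only the LNCaP-abl dilazep arrays stood apart (-2.33, SE 0.24, adjusted p = 3.0e-05). KLK3, which encodes prostate-specific antigen, fell by at least 2.14-fold in LNCaP-abl, to below background on all dilazep arrays. Its difference of -1.25 (SE 0.24, adjusted p = 0.00219) was not called without background correction or with the authors' processed values.

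Androgen-regulated genes differed in both directions. Of 33 measured androgen-induced genes, 10 were more positive and 8 more negative in LNCaP-abl (median difference 0.17, and -0.11 with median scaling). Over all genes tested, 15.9% were more positive and 17.9% more negative. Among the 10, the lipid phosphatase gene PLPP1 fell by 1.93 in LNCaP and 0.90 in LNCaP-abl, with 0.25 (not called) and 1.89 as differences at other probes. The elongation factor ELL2 fell by 1.18 in LNCaP and changed by 0.00 in LNCaP-abl. Of 16 androgen-repressed genes, 4 were more positive and 5 more negative. UGT2B17, which conjugates androgens, had LNCaP levels of 10.82 and 10.57 with H2O, 10.67 and 10.63 with DMSO, and 9.84, 9.89 and 9.99 with dilazep. The levels in LNCaP-abl were 12.26 and 12.29 with H2O, 12.32 and 12.22 with DMSO, and 10.07, 10.15 and 10.17 with dilazep. LNCaP-abl was higher under control, and the dilazep arrays of the lines lay close together (-1.37, SE 0.12, adjusted p = 8.1e-06). CLDN8, a tight junction gene, fell further in LNCaP (1.16, SE 0.20, adjusted p = 0.00114), with 0.98 at its other probe and -0.02 (adjusted p = 0.904) with the authors' processed values. Nor was the difference of CLDN8 called without background correction.

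Most genes of sterol synthesis and of the lysosome rose in both lines. Of 27 sterol synthesis and uptake genes, 21 were called higher in LNCaP-abl (27.2% of all genes tested), 22 in LNCaP (24.2%) and 20 in both lines (13.5%). Their difference was more positive in 10 and more negative in 3 (median 0.26, and -0.02 with median scaling). SC5D, a late enzyme of cholesterol synthesis, had LNCaP levels of 10.02 and 9.85 with H2O, 9.85 and 9.65 with DMSO, and 11.75, 11.53 and 11.30 with dilazep. Its LNCaP-abl levels were 9.66 and 9.40 with H2O, 9.33 and 9.39 with DMSO, and 12.71, 12.69 and 12.75 with dilazep. It rose in both lines without overlap and further in LNCaP-abl (1.58, SE 0.16, adjusted p = 2.6e-05). The cholesterol exporter NPC1 rose by 1.73 in LNCaP-abl and 0.37 in LNCaP. Of 21 fatty acid synthesis genes, 5 were more positive and 4 more negative. ELOVL6, a fatty acid elongase, rose in LNCaP alone (-0.93, SE 0.12, adjusted p = 1.4e-04, with -0.23 at its other probe, not called), and the desaturase SCD rose further in LNCaP (-0.62, SE 0.11, adjusted p = 0.00105). Of 31 lysosome genes, 22 rose in LNCaP-abl, 23 in LNCaP and 19 in both. The difference was more positive in 6 of them and more negative in 4, and among 21 autophagy genes in 7 and 4. WIPI1, which binds early autophagosomes, rose by 2.31 in LNCaP-abl and 0.50 in LNCaP.

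Of 12 measured genes of adenosine transport and signalling, 5 were more negative in LNCaP-abl and 0 more positive (median difference -0.38), beside 17.9% and 15.9% of all genes tested. SLC29A4, a transporter of the family that dilazep acts on, had LNCaP levels of 8.04 and 8.18 with H2O, 7.99 and 8.19 with DMSO, and 9.08, 9.20 and 9.17 with dilazep. On LNCaP-abl arrays it read 6.63 and 6.97 with H2O, 7.00 and 6.88 with DMSO, and 6.76, 6.58 and 6.74 with dilazep. It rose in LNCaP without overlap, with overlapping arrays in LNCaP-abl (-1.23, SE 0.15, adjusted p = 8.0e-05), and its other probe gave -0.08, not called. SLC29A2 rose in LNCaP by 0.62, and the difference of -0.51 (SE 0.14, adjusted p = 0.0161) was not called against DMSO alone. For SLC29A1, another member of the family, the difference was -0.25 (SE 0.25, adjusted p = 0.488), not called, and 3 of 14 arrays detected it. The receptor gene ADORA2B fell in both lines, by 2.48-fold in LNCaP and by at least 3.23-fold in LNCaP-abl, where its dilazep arrays were below background. Its difference of -0.70 (SE 0.15, adjusted p = 0.00438) was not called without background correction, with the authors' processed values or with an offset of 50.

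In the remaining lists the calls were fewer or mixed, beside 15.9% more positive and 17.9% more negative over all genes tested. Interferon-stimulated genes were more positive in LNCaP-abl in 7 of 24 and more negative in 1 (median 0.27), with ISG20, an exonuclease, rising by 1.20 in LNCaP-abl and falling by 0.45 in LNCaP. Keratins, claudins and adhesion genes were more positive in 6 of 19 and more negative in 1. BCL2 family genes were more positive in 5 of 17 and more negative in 3, and p53 targets in 5 and 2 of 20, among them GADD45A (1.43, SE 0.18, adjusted p = 1.5e-04). Cytosolic aminoacyl-tRNA synthetases were more positive in 6 of 18 and more negative in 2, or in 1 and 6 with median scaling, with SARS1 at 1.00 (SE 0.17, adjusted p = 0.00113). Mitochondrial synthetases had 2 and 4 of 16, heat shock genes 3 and 6 of 17, respiratory chain genes 6 and 4 of 28, metallothionein and zinc transporter genes 2 and 4 of 15, and MYC network genes 3 and 3 of 10. ID and inhibitory SMAD genes had 3 and 1 of 10. MYC fell in both lines, by 2.05 in LNCaP-abl and 0.77 in LNCaP, and its difference of -1.28 (SE 0.16, adjusted p = 1.2e-04) was -0.46 and not called at its other probe. In all, 62 named genes had 78 other kept probes, of which 72 gave a difference of the same sign and 59 were called with that sign. None of the 78 was called with the opposite sign in a limma fit to all named probes.

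**Figure D5:**
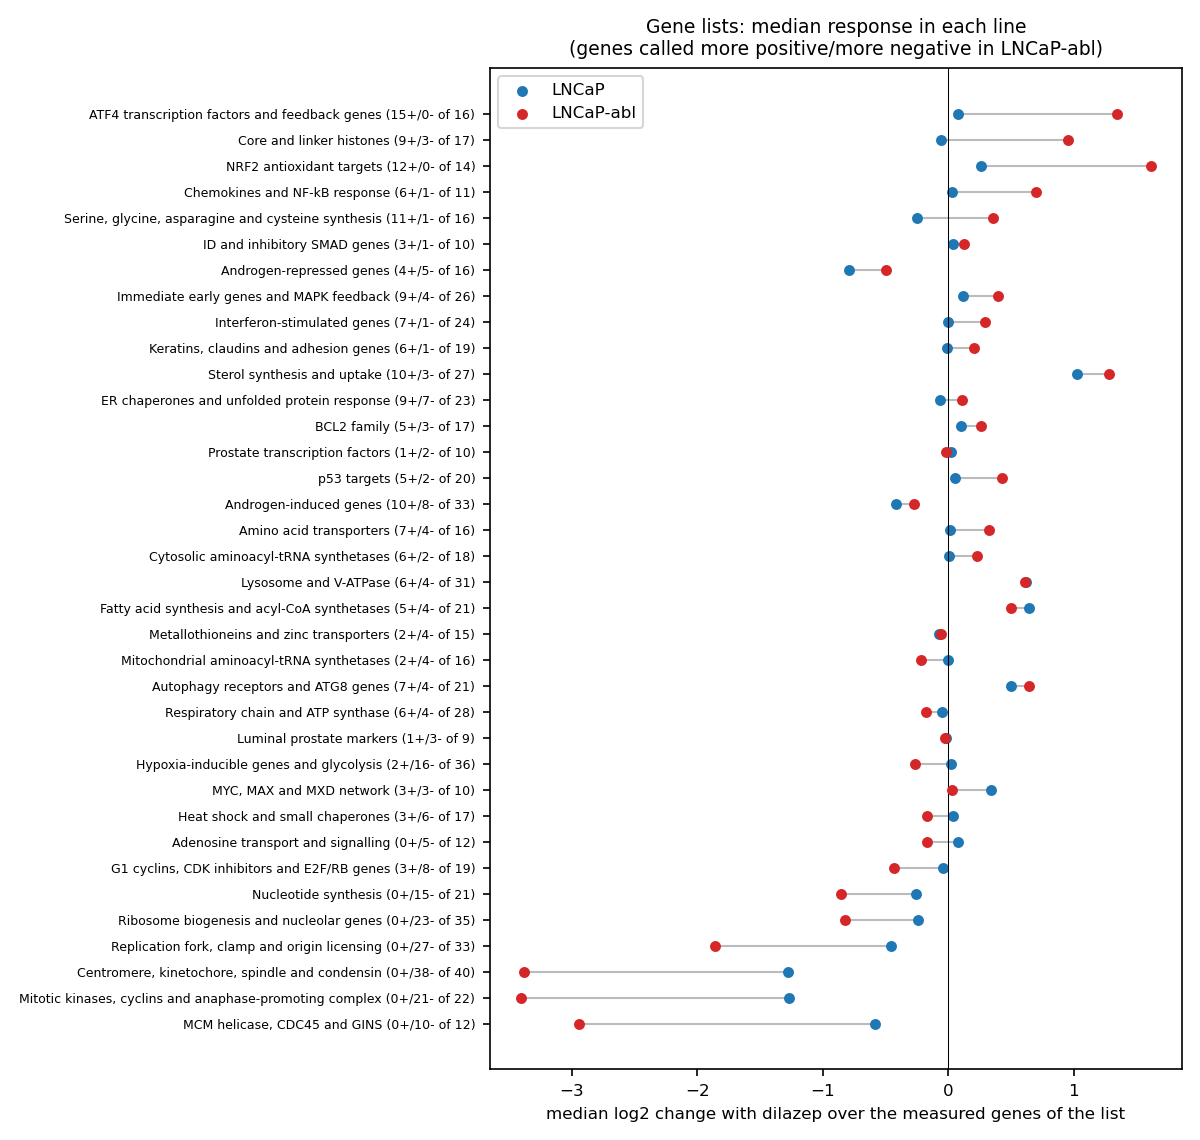
Median log2 change with dilazep over the measured genes of each list, in LNCaP (blue) and LNCaP-abl (red), with the numbers of genes called more positive and more negative in LNCaP-abl in each label. The ATF4, histone, NRF2 and chemokine lists lie higher in LNCaP-abl, and the replication and mitotic lists lie lower there, while the medians of the lysosome list nearly coincide.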

How the data were processed

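RNA of 14 samples was measured on Illumina BeadChips. The authors deposited a table of bead intensity values with no background subtraction or scaling visible in the values, and, per the file headers, a detection p-value for each probe. The authors also deposited processed values that look like log2 signals. They were made with lumi per the submitters' processing notes, with version, transform and normalisation not given in the sources used here. No per-sample column was left without a sample (0 columns). Each intensity column carries its sample's title in the header, and that title set its sample, since the running numbers there differ in part from the labels. Across probes, each of the 14 processed columns correlated best with the intensity column matched to the same sample. Intensities were background-corrected, quantile-normalised and log2-transformed with limma's neqc (offset 16), with negative controls inferred from the detection p-values. Probes detected (p under 0.05) on at least 2 arrays were kept. Gene names were taken only for probes in the authors' processed values, which held 22912 probes, beside 47323 distinct probes in the intensity table. Of the 22912, 16501 gave a gene name. Each gene was read from its brightest kept probe, which left 11983 genes. With no detection filter 12393 genes were tested. Genes without a named probe in the authors' processed values could not be tested. A model of 6 group means was fitted to all 14 arrays with limma 3.58.1 (lmFit and eBayes, R 4.3.3) and p-values were adjusted by Benjamini-Hochberg. The fit and the calling of genes were tested on simulated log2 values with independent noise. Background correction, normalisation, the detection filter and the choice of probe were not part of that test. The number of arrays limits precision. A gene below background on all arrays of a group has only a bound there: the brighter group's mean was set against, per array, the higher of the dimmest detected probe and the gene's own signal. Figures were drawn with matplotlib 3.10.9 (Python 3.11.15).

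Genes were named by rule. Among called genes detected on at least 50% of the arrays of every group, these were the 10 of each opposite pattern and the 6 of each other pattern of response with the largest differences. Added were the 6 largest that rest on a bound, the 4 called genes with the smallest p of each list, and 11 genes of the prostate, MYC and nucleoside transport. The comparison and the lists were chosen with earlier results of these data known, so counts over a list are descriptions and carry no test. Alternatives were no background correction, median scaling, the authors' processed values, an offset of 50, other detection filters, the mean of all probes, each vehicle alone, a replicate block and leaving out each array. Promoters were matched by symbol to RefSeq (GRCh38.p14) for 9568 of the 11983 genes.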

Additional observations from a re-analysis of the deposited data

Results flagged for a closer look

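The lines differed under the same contrast, by the interaction term of the limma fit, in 4056 genes, of which 226 rose in LNCaP-abl and fell in LNCaP and 165 did the reverse. The named genes that rose in LNCaP-abl and fell in LNCaP were TRIM49C (3.61), TRIM51 (3.36), GPX8 (3.32), CTH (2.97), H2AC6 (2.69), GCLM (2.68), RASD1 (2.60), ASPH (2.41), SMPDL3A (2.33) and XPOT (2.29), each value being the difference in log2 change. The named genes of the reverse pattern were HBQ1 (-2.85), GPER1 (-2.83), BARD1 (-2.05), GPRIN2 (-1.90), TUBA4A (-1.68), DDC (-1.67), PDIA4 (-1.66), RAD9A (-1.60), MAPK12 (-1.59) and GFOD1 (-1.54). No comparison of genes used the 8963 kept probes without a gene name. In a limma fit to these probes alone, 588 (6.56%) were called in the same contrast, beside 33.8% of genes tested. These shares are not like for like. Names were taken only for probes in the authors' processed values, and each gene was read from its brightest kept probe. Of the 588, 284 were more positive and 304 more negative in LNCaP-abl. The vehicle contrast called 0 of these probes.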

How the results depend on the processing

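Leaving out 1 array at a time gave 3423 to 4036 called genes, 1616 to 1860 more positive and 1800 to 2176 more negative in LNCaP-abl, 1067 to 1354 with a difference of at least 1, and 273 to 432 opposite genes. Of the opposite genes, 164 to 248 rose and 109 to 184 fell in LNCaP-abl, the 109 without LNCaP dilazep replicate 2. The vehicle contrast called 0 genes in every alternative. Genes with a difference of at least 1 numbered 426 without background correction, 324 with the authors' processed values and 763 with an offset of 50. Median scaling gave 982 more positive and 3344 more negative genes, and 85 and 319 opposite genes that rose and fell in LNCaP-abl. Against DMSO alone, 215 genes were opposite, 133 and 82. Of 391 opposite genes, 77 kept both directions and calls in all alternatives, and 161 in all that left out an array. Median scaling turned the sign of the median difference in 12 of 40 lists. Of 196 named called genes, 172 were called with the same sign in every alternative and 24 were not called in at least 1. CARS2, EARS2 and MXD1, named here because leaving out an array ended their call, were 3 of the 24. CLDN8 reversed with the authors' processed values, at -0.015577. In 108 of the 196 the authors' values moved the difference by over 1.5 times. The cause of these changes was not tested. A replicate block left 3404 called genes, 3184 of them also without it, and 267 were opposite. With the block, TUBA4A, EDEM1, TRIB3, SRXN1, RAD9A, H4C14 and PFKP, among others, left the pattern of response given for them above. No clear pairing by number was seen: deviations of 22 same-numbered pairs correlated at -0.18 to 0.21, 1 pair over 0.1. Of 14 arrays, 6 correlated best with an array of their own number. In groups of 2 arrays the deviations mirror each other, so this check cannot exclude pairing. Differences of dim genes are limited by signal over background, and 577 called genes rest on a bound.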
